A study of Drosophila melanogaster with 4 samples.

Results

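Genes of the dense-core vesicle pathway were examined in nuclear RNA from fly heads. They were IA-2, amon, svr, Phm, Pal1, Pal2, Cadps and dimm, which are 8 of the 17137 genes in the count table. IA-2 was picked because it was very abundant and differed between the genotypes, so its level and its difference are given as a description without a test. The 7 other genes were picked for their known roles in making, amidating and releasing neuropeptides, but with earlier results of these data known. The flies were Drosophila melanogaster at an age of 10 days, untreated, and all of them carried UAS-UNC84, a nuclear envelope tag (fused to GFP, per the series' design text) through which nuclei were pulled down from frozen heads. In one genotype the tag was driven by the VAChT:VGlut split-Gal4 pair, and in the other by the VAChT:VGAT pair. Split-Gal4 needs the promoters of both named genes to be active in a cell, here the vesicular acetylcholine transporter together with the vesicular glutamate or the vesicular GABA transporter. There were 2 libraries of each genotype, 4 in all, with 1490390 to 2556988 counts per library. Untagged or input nuclei were not analysed here, so how pure the pull-down was for driver-labelled cells is not known from these data. Nothing in the labels tells whether replicate libraries stem from independent fly collections, so p-values measure only the spread between these libraries, which may be technical.

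Neuropeptides are made as long precursors that travel through the Golgi into dense-core vesicles. There, a proprotein convertase cuts the precursor at pairs of basic residues, a carboxypeptidase trims the exposed basic residues, and a pair of enzymes turns a C-terminal glycine into an amide. The finished peptide is released when the vesicle fuses with the plasma membrane. In flies, amon encodes the convertase (the homologue of mammalian PC2), svr a carboxypeptidase D, and Phm the first amidating enzyme, which needs copper and ascorbate. Pal1 and Pal2 encode lyases for the second amidating step, which mammals carry out with a domain of the same protein as the first. IA-2 is a vesicle membrane protein of the receptor tyrosine phosphatase family, whose mammalian homologue is an autoantigen in autoimmune diabetes. Cadps (CAPS) primes dense-core vesicles for release, and dimm encodes a basic helix-loop-helix transcription factor of peptidergic neuroendocrine cells that activates Phm.

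The labels call the material neuronal nuclei, and 9 of 9 pan-neuronal genes (elav, brp, Syt1, nSyb, cac, para, futsch, Rim and Syn) were detected and passed the filter on low counts (filterByExpr in edgeR). Their summed level was 13471 and 13809 CPM (counts scaled to a library total of 1000000) in the VAChT:VGlut libraries and 11449 and 11590 CPM in the VAChT:VGAT libraries. All 9 were higher in VAChT:VGlut (edgeR adjusted p under 0.05), with a median log2 fold change of 0.25 (0.12 to 0.37). Markers of other cells were present too. The 8 photoreceptor genes summed to 30443 and 30720 CPM in VAChT:VGlut and to 24675 and 24894 in VAChT:VGAT, the 7 muscle genes to 1231 and 1221 against 878 and 881, and the 6 fat body genes to 27744 and 27139 against 33581 and 33648. The 7 glial genes summed to 1734 and 1654 against 2162 and 2161, and the 3 hemocyte genes to 73.1 and 80.3 against 125 and 107. No gene on these 6 marker lists had 0 reads in every library. Of the tested ones, 8 of 8 photoreceptor and 6 of 6 muscle genes were higher in VAChT:VGlut, and 5 of 5 fat body, 2 of 2 hemocyte and 3 of 7 glial genes were higher in VAChT:VGAT (edgeR adjusted p under 0.05). These directions are relative to the TMM scaling of edgeR, and with libraries scaled to the pan-neuronal genes 4 photoreceptor genes were higher and 1 lower in VAChT:VGlut, 2 muscle genes were higher, and 6 glial genes were lower. Their part in the differences of the 8 genes was not tested, and in such bulk samples fewer cells of a type cannot be told apart from less RNA per cell.

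IA-2 (FBgn0031294; dm6 chromosome 2L, 1008378 to 1048053, minus strand; 14 merged exons) was by count the 4th most abundant gene of the table, after ninaE, Yp1 and lncRNA:CR42862. Its counts were 28441 and 37021 for VAChT:VGlut against 16022 and 12377 for VAChT:VGAT. This was 1.41% (95% Wilson interval 1.39 to 1.42) and 1.45% (1.43 to 1.46) of all counts in VAChT:VGlut, and 0.827% (0.814 to 0.84) and 0.83% (0.816 to 0.845) in VAChT:VGAT. Such intervals cover counting error only. After scaling, IA-2 had 14234 and 14649 CPM in VAChT:VGlut and 8166 and 8208 in VAChT:VGAT. Both VAChT:VGlut libraries thus lay far above both VAChT:VGAT libraries, and the libraries of a genotype were within 1.03-fold of each other. The genotype means were 14441 ± 293 and 8187 ± 29.9 CPM (SD, n = 2 each), 1.76-fold apart (log2 fold change 0.82).

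Among the 100 most abundant genes that were tested, the median size of the log2 fold change was 0.19. IA-2 had the 3rd largest, after CG8343 (-1.48) and CG9676 (-1.42), which were both higher in VAChT:VGAT. It was more abundant than either (11314 CPM on average, against 1866 and 1515). Since IA-2 was picked for its abundance and its difference, a high rank follows from the choice and is a description only. All exon bases of IA-2 were free of other genes on the same strand. The gene CG4375 lies inside its span on the same strand and CG4415 on the opposite strand, and each had 0 counts in all 4 libraries. No annotated gene on its strand thus shared exon bases with IA-2.

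**Figure D1:**
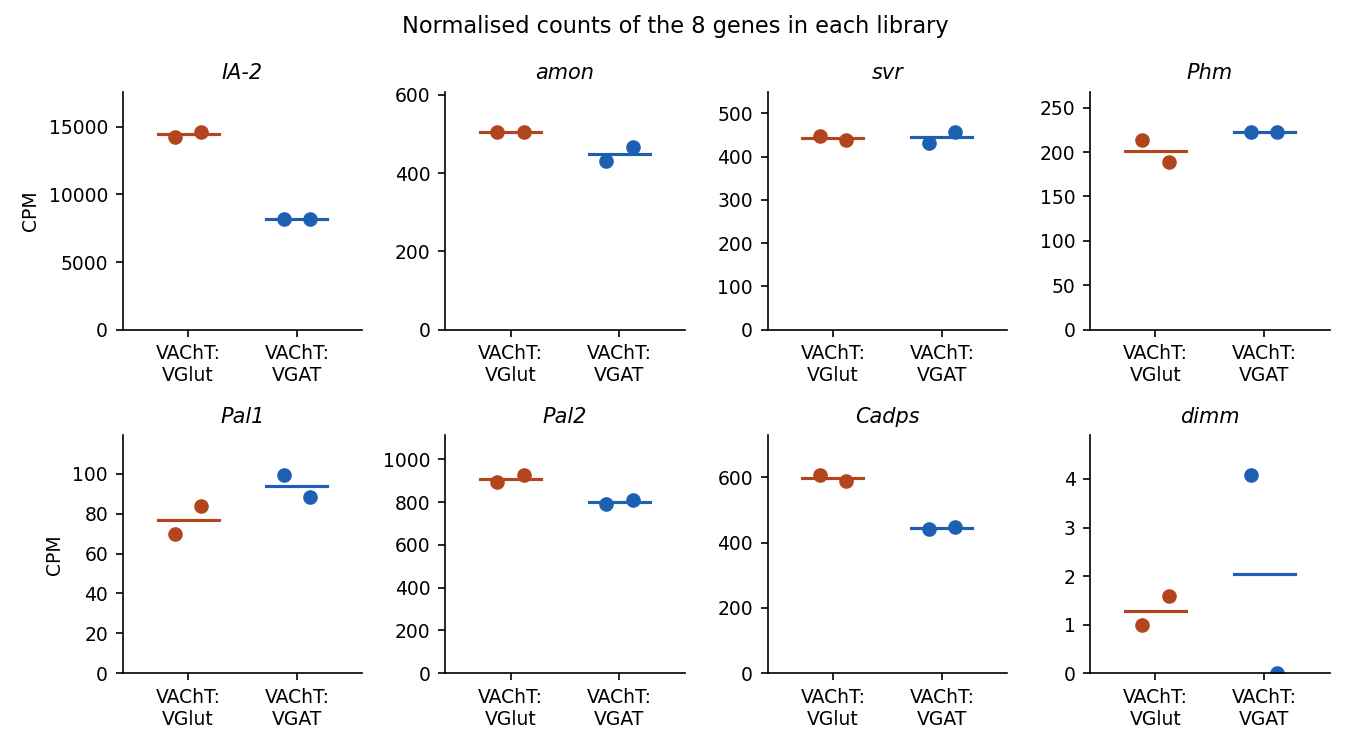
Normalised counts (CPM, vertical axis from 0, a separate scale for each gene) of the 8 genes in the 2 VAChT:VGlut and 2 VAChT:VGAT libraries. Points are libraries and bars are genotype means. IA-2 was at 14234 and 14649 against 8166 and 8208 CPM, Cadps was separated by genotype in the same direction, svr overlapped, and dimm lay at or below 4.08 CPM.

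Of the genes of the cleavage enzymes, amon was slightly higher in VAChT:VGlut and svr was not distinguishable between the genotypes. The convertase gene amon (FBgn0023179; chromosome 3R, 26697697 to 26714159, minus strand) was measured at 506 and 506 CPM in VAChT:VGlut and 432 and 467 in VAChT:VGAT. The VAChT:VGlut libraries were both above the VAChT:VGAT libraries, and the latter differed from each other by more than the former. amon was 1.13-fold higher in VAChT:VGlut (log2 fold change 0.18 with SE 0.05, edgeR quasi-likelihood adjusted p = 0.0201). This call was lost with library size alone as the scaling (adjusted p = 0.0818), with DESeq2 (0.163), after removal of a trend of fold change on exonic length (0.144), and without VAChT:VGlut replicate 1 (0.0757), VAChT:VGlut replicate 2 (0.123) or VAChT:VGAT replicate 1 (0.426), all other fits being edgeR's. The carboxypeptidase gene svr (FBgn0004648; chromosome X, 496446 to 509072, plus strand) had 449 and 438 CPM in VAChT:VGlut and 431 and 458 in VAChT:VGAT. The genotypes overlapped, and no difference was detected (log2 fold change -0.00, 95% interval -0.11 to 0.11, edgeR adjusted p = 0.999).

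Of the 3 amidation genes, Pal2 alone was past the threshold. Phm (FBgn0283509; chromosome 2R, 23985175 to 23988455, minus strand) was measured at 213 and 189 CPM in VAChT:VGlut and 223 and 223 in VAChT:VGAT. The VAChT:VGAT libraries lay close together above both VAChT:VGlut libraries, which differed more from each other than the higher of them did from VAChT:VGAT, and the log2 fold change of -0.16 (SE 0.08, 95% interval -0.31 to -0.00) did not pass the threshold (edgeR adjusted p = 0.213). Pal1 (FBgn0283510; chromosome 2R, 9959549 to 9963853, plus strand) had 69.6 and 83.9 CPM in VAChT:VGlut and 99.4 and 88.2 in VAChT:VGAT. The groups did not overlap but the spread within each was wide, and the log2 fold change was -0.29 (SE 0.12, 95% interval -0.53 to -0.04, edgeR adjusted p = 0.136).

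The other lyase gene, Pal2 (FBgn0262728; chromosome 2R, 23688077 to 23690838, plus strand), had 894 and 926 CPM in VAChT:VGlut and 793 and 808 in VAChT:VGAT. Both VAChT:VGlut libraries were above both VAChT:VGAT libraries. Pal2 was 1.14-fold higher in VAChT:VGlut (log2 fold change 0.19 with SE 0.04, edgeR adjusted p = 0.000816). Of its exon bases, 25.7% lie opposite exons of CG30183, which had 20 to 30 counts per library on its own strand, and the counts were made by strand. Per kb of exon, the ratio of Pal2 to Pal1 was 16.7 and 14.3 in VAChT:VGlut and 10.4 and 11.9 in VAChT:VGAT. Of the pair of lyase genes, the transcripts of Pal2 were thus the more abundant in every library.

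Cadps had the largest fold change among the 6 tested genes picked by function. This release gene (FBgn0053653; chromosome 4, 1230837 to 1271759, plus strand; 26 merged exons) had 607 and 589 CPM in VAChT:VGlut and 442 and 448 in VAChT:VGAT. The gap between the genotypes was several times the difference within either. Cadps was 1.34-fold higher in VAChT:VGlut (598 ± 12.6 against 445 ± 3.72 CPM, SD, n = 2 each), a log2 fold change of 0.42 (SE 0.05, edgeR adjusted p = 1.28e-09). The difference kept its direction in 14 of 14 alternatives and its call in 13.

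The regulator dimm (FBgn0023091; chromosome 2L, 21331756 to 21342155, plus strand) was near the limit of detection. Its counts were 2 and 4 for VAChT:VGlut against 8 and 0 for VAChT:VGAT. The count of 0 allows up to 3 counts, or 2.01 CPM, in that library. Summed over libraries, dimm had 6 counts (1.31 CPM) in VAChT:VGlut and 8 (2.33 CPM) in VAChT:VGAT, a ratio of 0.561 with an exact 95% interval of 0.161 to 1.85 that covers counting error only. dimm did not pass the filter on low counts and a difference was not detectable at this depth.

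In all, 7 of the 8 genes passed the filter. Of the 6 tested genes that were picked by function, 3 (amon, Pal2 and Cadps) were past the threshold and higher in VAChT:VGlut, and 0 were past it and higher in VAChT:VGAT, where Phm and Pal1 had unadjusted p-values of 0.046 and 0.0238 in edgeR and neither was called by DESeq2 or limma-voom. The median log2 fold change of the 6 was 0.09. Over all 8246 genes tested, 11.8% were past the threshold, 6.22% higher in VAChT:VGlut and 5.54% higher in VAChT:VGAT, and the median log2 fold change was -0.009. These are 970 genes, split 513 to 457. With library size alone as the scaling the split was 401 higher in VAChT:VGlut to 574 higher in VAChT:VGAT. Without VAChT:VGlut replicate 2 the total was 513, and without VAChT:VGAT replicate 1 it was 613. In a fit of only the 5121 genes with a mean of at least 50 counts, which all 6 had, 953 genes were called. The share of 11.8% thus takes in many genes with fewer counts and is low for genes counted this well. The common biological coefficient of variation fitted by edgeR was 2.18%. With this coefficient held at a larger value, 0.1, 0 of the 3 calls remained in edgeR's likelihood ratio test. The adjusted p-values of that test were 0.788 for amon, 0.754 for Pal2 and 0.141 for Cadps.

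Since pan-neuronal genes were higher in VAChT:VGlut, the 8 genes were also set against the summed counts of those 9 genes in each library. For every 100 pan-neuronal reads there were 106 and 106 IA-2 reads in VAChT:VGlut and 71.3 and 70.8 in VAChT:VGAT. The genotypes stayed apart for IA-2 in this measure, by a smaller ratio (1.49) than in CPM. Cadps had 4.5 and 4.26 against 3.86 and 3.86, and remained higher in VAChT:VGlut. amon (3.76 and 3.66 against 3.77 and 4.03) and Pal2 (6.64 and 6.7 against 6.93 and 6.97) were slightly lower there in this measure. svr (3.33 and 3.17 against 3.76 and 3.95), Phm (1.58 and 1.37 against 1.95 and 1.93) and Pal1 (0.516 and 0.607 against 0.868 and 0.761) were lower in VAChT:VGlut. In this measure the genotypes did not overlap for any of the 8 genes but dimm. The share of all genes that separate in this way was not computed, so the separation shows nothing particular to these genes.

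**Figure D2:**
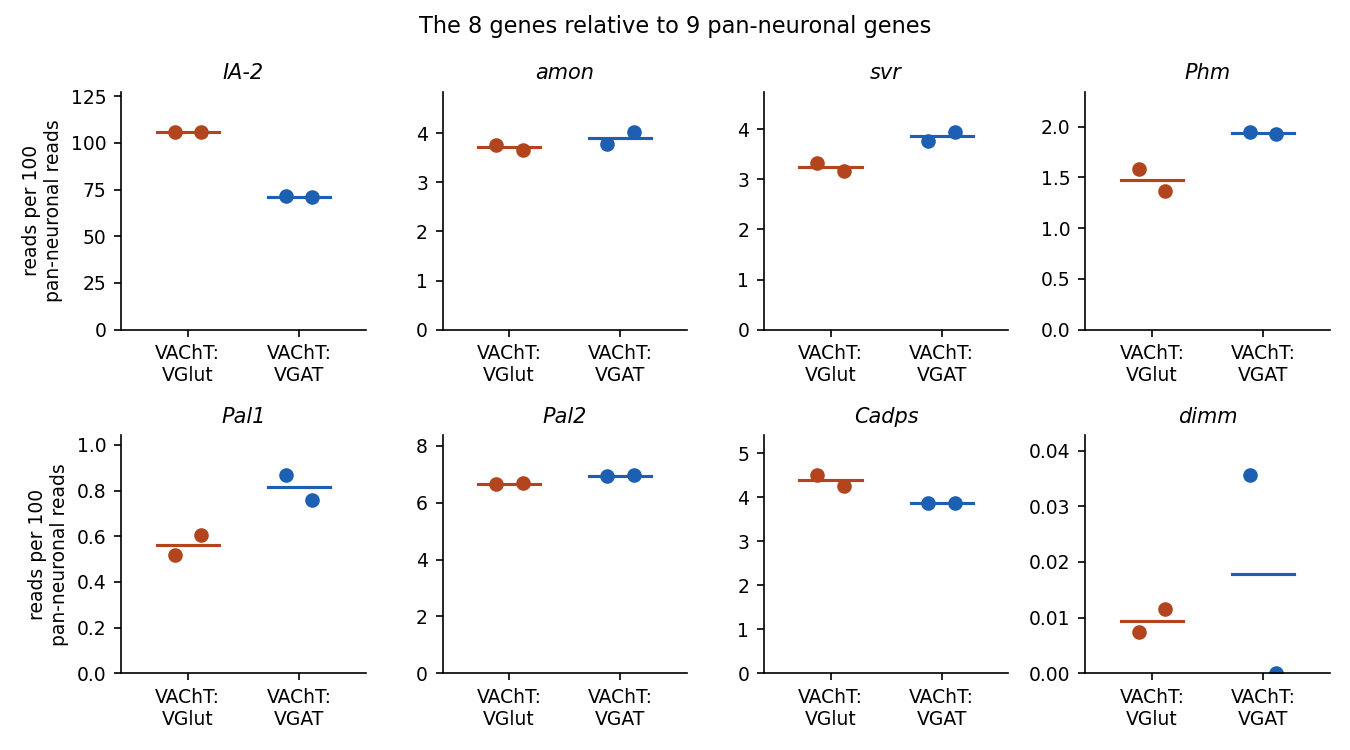
Reads of each of the 8 genes per 100 reads of 9 pan-neuronal genes (vertical axis from 0, a separate scale for each gene), by genotype. Points are libraries and bars are genotype means. IA-2 (106 and 106 against 71.3 and 70.8) and Cadps (4.5 and 4.26 against 3.86 and 3.86) were higher in VAChT:VGlut, the 5 genes amon, svr, Phm, Pal1 and Pal2 were lower, and dimm overlapped.

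When this sum was used to scale the libraries in the edgeR fit, the median log2 fold change of all tested genes moved to -0.25, and the calls were 83 toward VAChT:VGlut and 2194 toward VAChT:VGAT. The log2 fold change of IA-2 was then 0.57 and that of Cadps 0.18 (edgeR adjusted p = 0.00985). amon (-0.07, adjusted p = 0.362) and Pal2 (-0.06, adjusted p = 0.326) changed sign and were not past the threshold in edgeR. svr (-0.25, adjusted p = 0.000874), Phm (-0.40, adjusted p = 8.56e-05) and Pal1 (-0.53, adjusted p = 0.000904) passed it in the other direction in the same fit. The value of svr is close to the median of all tested genes in this scaling, and those of Phm and Pal1 lie below it. The directions of amon and Pal2 thus depended on the scaling, as did whether svr, Phm and Pal1 passed the threshold. IA-2 and Cadps were higher in VAChT:VGlut under both scalings.

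**Figure D3:**
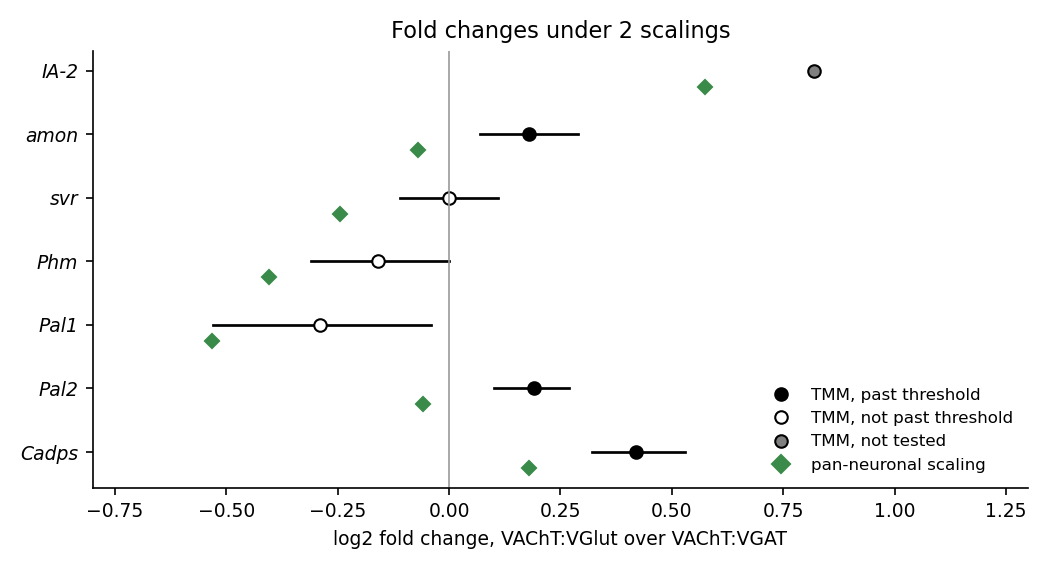
Log2 fold changes (VAChT:VGlut over VAChT:VGAT, horizontal axis) of the 7 genes that passed the filter. Circles are the fit with TMM scaling, filled black where past the threshold, open where not, and grey for IA-2, which was not tested. Lines are 95% intervals, drawn for every gene but IA-2. Diamonds are the fit scaled to pan-neuronal genes. The diamonds of IA-2 (0.57) and Cadps (0.18) stay above 0, and those of amon (-0.07) and Pal2 (-0.06) fall on the other side of it.

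Levels were compared between genes after division by exonic length. In CPM per kb of exon, the order was IA-2, Pal2, Phm, amon, Cadps, svr, Pal1 and dimm. IA-2 had 1388 and 1428 CPM per kb in VAChT:VGlut and 796 and 800 in VAChT:VGAT, and was the 26th highest gene of the table by its mean over libraries. Pal2, next in order, had 344 to 402 CPM per kb over the 4 libraries, so that the mean of IA-2 was 2.97 times that of Pal2. Phm (118 to 139) and amon (108 to 127) overlapped and cannot be ordered. All other neighbours were separated in all libraries, with Cadps at 76.8 to 105 CPM per kb, svr at 50.2 to 53.4, and Pal1 at 23.3 to 33.2. dimm was below 1.24 CPM per kb or at that value in each library. Of 12002 genes with a read in any library, 98.6% had a lower mean CPM per kb than Pal2, 88.8% than svr, and 16% than dimm.

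**Figure D4:**
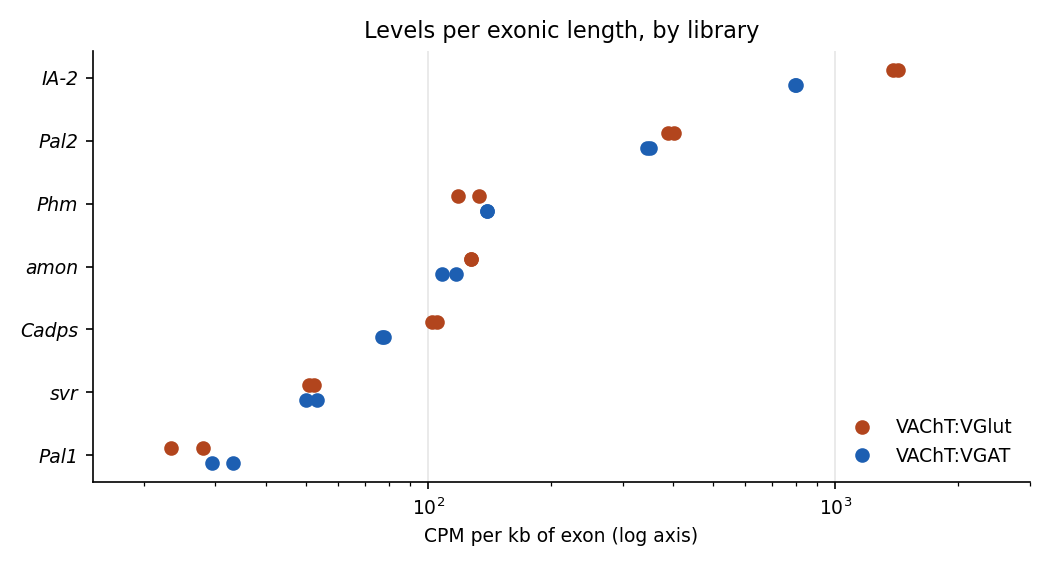
CPM per kb of exon (horizontal log axis) of 7 genes in each library, in order of their mean, with dimm left out because it had no reads in one library. Points are libraries, VAChT:VGlut in brown and VAChT:VGAT in blue. IA-2 lies between 796 and 1428 CPM per kb, apart from Pal2 at 344 to 402, and Phm and amon overlap.

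Ratios between genes within a library do not depend on the library scaling, and were computed in CPM per kb for all 15 pairs of the 6 tested genes picked by function. In 13 pairs the ratios of the genotypes did not overlap and in 2 pairs (Pal2 to amon and Phm to Pal1) they did. The pairs share genes and the ratios were not tested. How often pairs of other genes separate in this way was not computed, so the count shows nothing particular to these genes. The ratio of Cadps to svr was 2.01 and 2 in VAChT:VGlut and 1.53 and 1.46 in VAChT:VGAT, and that of Phm to Cadps was 1.26 and 1.15 against 1.81 and 1.79. The ratio of Pal2 to Phm, which encode enzymes of successive amidation steps, was 2.92 and 3.41 against 2.48 and 2.52, and that of amon to svr was 2.42 and 2.48 against 2.16 and 2.19. Pal2 to amon was 3.06 and 3.17 against 3.18 and 3.

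Exonic length moved with the fold changes of all genes (Spearman rho 0.33 across 8246 genes, which are not independent replicates). IA-2, with 10257 exonic bases, was longer than 97.1% of tested genes, and the fitted trend at its length was a log2 fold change of 0.15. After removal of the trend its log2 fold change was 0.67. Cadps (5762 bases) had 0.34 after removal (edgeR adjusted p = 9.23e-07) and Pal2 (2304 bases) had 0.22 (edgeR adjusted p = 0.000128). svr, which at 8583 bases was also longer than 95.4% of tested genes, had -0.13 (edgeR adjusted p = 0.18).

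By the rule for likeness, the genes compared with IA-2 were the 6 tested genes whose mean CPM was within 2-fold of its own. The profiles of log2 CPM over the 4 libraries, each centred on its mean, were nearest for ninaE (Euclidean distance 0.47; log2 fold change 0.35), Atpalpha (0.573; 0.25), lncRNA:CR42862 (0.733; 0.09), Yp1 (1.08; -0.26) and Yp2 (1.17; -0.35). Over all 2162 other tested genes with a mean of at least 100 CPM, a comparison chosen after the data were seen, the nearest were Dhit (distance 0.0779; log2 fold change 0.75), CG43066 (0.0788; 0.79), pros (0.145; 0.69), br (0.146; 0.70) and Proc (0.186; 0.67). pros and br encode transcription factors and Proc is the precursor of the neuropeptide proctolin. With 4 libraries in 2 groups, nearness in profile says little beyond a like difference between the genotypes.

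The rest of the pathway was described with 7 lists of other genes, 79 in all, of which 74 were tested. Of these, 8 were past the threshold, 6 higher in VAChT:VGlut and 2 higher in VAChT:VGAT, which is 10.8% beside 11.8% of all tested genes. The median log2 fold change of the 74 genes was 0.04. Without VAChT:VGlut replicate 2 the count was 4, and with the pan-neuronal scaling it was 25, 3 higher in VAChT:VGlut and 22 higher in VAChT:VGAT. With the variation fixed at 0.1, 2 of the 8, Ms and AstA, were past the threshold.

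Other processing enzymes and the cofactor genes of amidation showed no call. The list of Fur1 and Fur2 (furin-like convertases), 7B2 (homologue of the mammalian chaperone of PC2), QC and isoQC (glutaminyl cyclases) and Tpst (tyrosine sulfation) had 0 of 6 past the threshold in edgeR, DESeq2 or limma-voom and 1 at an unadjusted p under 0.05. The log2 fold changes ranged from -0.49 to 0.14, and 4 of the 6 were above 0. QC had 16 and 18.2 CPM in VAChT:VGlut and 26 and 21.9 in VAChT:VGAT (-0.49). For isoQC the values were 11.5 and 15.8 against 20.4 and 18.6 CPM (-0.49). For 7B2 the means were 537 CPM for VAChT:VGlut and 527 CPM for VAChT:VGAT (log2 fold change 0.02). With the pan-neuronal scaling, where the median of all genes was -0.25, 4 of the 6 were higher in VAChT:VGAT. Of the copper genes ATP7, Ctr1A and Atox1 and the cytochrome b561 gene nemy, which acts with ascorbate, 0 of 4 were past the threshold by any of these tools and 0 had an unadjusted p under 0.05 in edgeR. Their summed level was 260 and 262 CPM in VAChT:VGlut and 271 and 294 in VAChT:VGAT, and 3 of the 4 were higher in VAChT:VGAT with the pan-neuronal scaling.

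Genes of vesicle assembly showed no call either. Of 15 genes, among them Rab2, Rab7 and the tethering subunits Vps50 to Vps53, 0 were past the threshold by any of the 3 tools and 1 had an unadjusted p under 0.05 in edgeR. Their log2 fold changes ranged from -0.23 to 0.28. The 95% intervals of several of these genes reached past 0.42, the log2 fold change of Cadps, so differences of that size could be missed. Among 6 transcriptional regulators of secretory or peptidergic cells (crc, CrebA, Xbp1, ap, sqz and da), 0 were past the threshold by any of the 3 tools and 2 had an unadjusted p under 0.05 in edgeR. crc, the fly ATF4, was nearest to the threshold, with means of 172 CPM for VAChT:VGlut against 146 CPM (log2 fold change 0.25, edgeR adjusted p = 0.0557). With size factors of DESeq2 in edgeR 1 of the 6 was past the threshold.

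Vesicle transport and release was the list with most calls among the vesicle genes, with 3 of 14 (21.4%, beside 11.8% of all tested genes) higher in VAChT:VGlut and 0 higher in VAChT:VGAT by edgeR, DESeq2 and limma-voom, and 4 at an unadjusted p under 0.05 in edgeR. With the pan-neuronal scaling the tally turned to 1 higher in VAChT:VGlut and 4 higher in VAChT:VGAT, with a median log2 fold change of -0.13 beside -0.25 for all tested genes. Syx1A, a membrane SNARE protein, had 254 and 258 CPM in VAChT:VGlut and 185 and 186 in VAChT:VGAT (log2 fold change 0.46 with SE 0.08, edgeR adjusted p = 2.57e-06). Rab3, a vesicle GTPase, had 555 and 537 against 400 and 450 (0.37 with SE 0.06, edgeR adjusted p = 3.63e-07). The kinesin gene unc-104, whose motor carries dense-core and synaptic vesicle precursors along axons, had 1494 and 1379 against 1269 and 1198 (0.21 with SE 0.04, edgeR adjusted p = 1.68e-05). All 3 also serve synaptic vesicles, and the median of the list (0.12) was lower than that of the pan-neuronal genes (0.25). With the pan-neuronal scaling Syx1A kept its call (edgeR adjusted p = 0.0295), Rab3 did not (0.102), and unc-104 had a log2 fold change of -0.03 (edgeR adjusted p = 0.626). unc-104 was also not past the threshold after the length trend was removed (edgeR adjusted p = 0.139). Syt4 and Syt7, calcium sensors with roles at dense-core vesicles in mammals, had 687 against 639 and 272 against 294 CPM and were not past the threshold (edgeR adjusted p = 0.147 and 0.35).

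Most precursors whose peptides carry an amide, the substrates of Phm and the lyases, did not pass the test. Of 26 genes 22 were tested, of which 3 were higher in VAChT:VGlut, 1 was higher in VAChT:VGAT and 18 did not pass in edgeR. The called share was 18.2%, beside 11.8% of all tested genes. DESeq2 called 1 of the 22 and limma-voom called 4. In edgeR the calls were 2 and 2 with library size alone, and 2 higher in VAChT:VGlut and 7 higher in VAChT:VGAT with the pan-neuronal scaling. RYa had 0 counts in every library, and Akh, CCAP and ETH had at most 3 counts in a library. Ms (myosuppressin) had 194 and 183 CPM in VAChT:VGlut and 133 and 111 in VAChT:VGAT (log2 fold change 0.61 with SE 0.09, edgeR adjusted p = 4.55e-07), and kept its call in all 14 alternatives. AstA (allatostatin A) had 62.6 and 84.3 against 53 and 37.8 (0.68 with SE 0.16, edgeR adjusted p = 0.000825). Its call was lost without VAChT:VGlut replicate 2 (edgeR adjusted p = 0.227) or VAChT:VGAT replicate 2 (0.0504). Crz (corazonin) was higher in VAChT:VGAT, with 19 and 16.2 against 26 and 31.2 CPM (-0.69 with SE 0.23, edgeR adjusted p = 0.0344). Its call was lost without VAChT:VGlut replicate 2 (edgeR adjusted p = 0.257), VAChT:VGAT replicate 1 (0.06) or VAChT:VGAT replicate 2 (0.239), and after removal of the length trend (0.192). The tachykinin gene Tk had a log2 fold change of 0.28 (SE 0.09, edgeR adjusted p = 0.0205), and its call was lost with library size alone (edgeR adjusted p = 0.0506), with pan-neuronal scaling (log2 fold change 0.04, edgeR adjusted p = 0.788), with DESeq2 (0.19) and without VAChT:VGlut replicate 2 (0.308), VAChT:VGAT replicate 1 (0.0849) or VAChT:VGAT replicate 2 (0.118). The summed level of the 26 precursors was 1756 and 1721 CPM in VAChT:VGlut and 1656 and 1627 in VAChT:VGAT.

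Of 8 peptidases that break peptides down, 7 were tested. Of these, 1 (14.3%, beside 11.8% of all tested genes) was past the threshold, the neprilysin gene Nep4. It was higher in VAChT:VGAT, with 384 and 347 CPM in VAChT:VGlut and 441 and 436 in VAChT:VGAT (log2 fold change -0.27 with SE 0.06, edgeR adjusted p = 0.000495). Without VAChT:VGlut replicate 2 its adjusted p in edgeR was 0.119. The 6 other tested peptidases had log2 fold changes between -0.23 and 0.12.

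**Figure D5:**
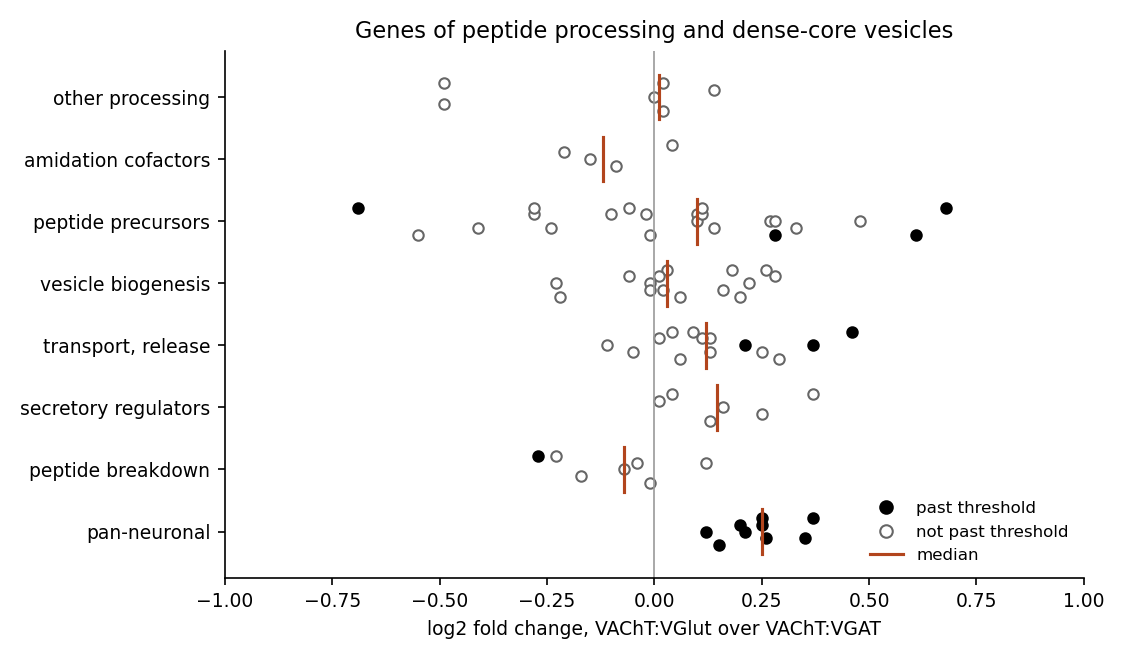
Log2 fold changes (VAChT:VGlut over VAChT:VGAT, horizontal axis) of the tested genes of 7 pathway lists and of the pan-neuronal list. Filled points are past the threshold, open points are not, and vertical bars are list medians. The pan-neuronal genes lie between 0.12 and 0.37, peptide precursors spread from -0.69 to 0.68, and no gene of the processing, cofactor, biogenesis or regulator lists is past the threshold.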

How the data were processed

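Per the file headers, the authors made raw counts of read pairs per gene with featureCounts 1.5.1, reverse-stranded, using refGene exons on dm6. The submitters' processing notes also name fastp, STAR and DESeq2, without saying what each was used for. RNA was poly(A)-selected, per the labels. The deposited table's exonic length in bases was used for CPM per kb. FlyBase identifiers came from the Ensembl BDGP6 annotation, whose spans were identical for all 8 genes.

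The counts as deposited were fitted with edgeR 4.0.16 (R 4.3.3; quasi-likelihood F test, genotype only, TMM scaling, filterByExpr with minimum count 10), with Benjamini-Hochberg adjustment over 8246 genes and a threshold of 0.05. CPM are counts scaled to a TMM-adjusted library total of 1000000, and 3 counts were 1.17 to 2.01 CPM. Alternatives used limma 3.58.1 (limma-voom), DESeq2 1.42.0, 2 other scalings of edgeR, pan-neuronal scaling, other filters, a length offset, a variation fixed at 0.1, a replicate block and each library left out. The 3 tools were also run on counts simulated with the variation that edgeR fitted to these 4 libraries. Such a run cannot tell whether the p-values hold if the replicates are technical. Libraries of a genotype differed by slightly more than counting noise (chi-square over degrees of freedom 1.22 and 1.19) and were kept apart. The common biological coefficient of variation fitted by edgeR was 2.18%, and the p-values rest on this small spread.

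The 8 genes and all lists were chosen with earlier results of these data known. Named were all 8 genes, up to 3 called genes with the smallest p-value of each list and any list gene without reads, and the 5 genes most like IA-2. Crz, crc, Syt4, Syt7, 7B2, QC, isoQC and the genes named from the wider likeness comparison lie outside this rule and were chosen after their values were seen.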

Additional observations from a re-analysis of the deposited data

How the results depend on the processing

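The 3 calls among the 6 tested genes picked by function fell to 0 with the variation fixed at 0.1 and a likelihood ratio test, and ranged from 2 to 3 when one library was left out. A lone library was then assumed to vary like the other genotype. Pathway calls, 8 at first, were 25 with pan-neuronal scaling, 5 with DESeq2 (which gave no adjusted p for AstA and Crz), 2 at the fixed variation, and 4 to 8 with a library left out. Calls over all genes, 970 at first, were 2277 with pan-neuronal scaling, 373 with DESeq2, 186 at the fixed variation, 628 without the length trend, and 513 to 738 with a library left out. The cause was not tested. Signs changed for amon (-0.070), Pal2 (-0.059) and unc-104 (-0.029) with pan-neuronal scaling, and for svr, which had no call, with size factors of DESeq2 in edgeR (0.007), no filter (0.011), DESeq2 (0.005), limma-voom (0.001) and with a library left out (-0.049 to 0.041). The log2 fold change of IA-2 ranged from 0.57 to 0.84 over 14 alternatives. The replicate block gave 3 of the 6, 8 pathway genes and 1049 genes in all. Same-numbered libraries did not deviate together (correlation -0.029 across genes), so the numbers were not taken as pairs. Without division by length, 5 of the 8 genes kept their place in the order of levels. Depth limits dimm, Akh, CCAP, ETH, RYa and Nep5, which were not tested.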
